A study of Mus musculus with 16 samples.

Results

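The genes described here form the rapid signalling route that leads from the G protein-coupled estrogen receptor (GPER, gene Gper1) through the epidermal growth factor receptor (EGFR), the kinase Src, phosphatidylinositol 3-kinase (PI3K) and the kinase Akt to endothelial nitric oxide synthase (NOS3). They are Hbegf, Egfr, Erbb2, Erbb4, Src, Pik3ca, Pik3cb, Akt1 and Nos3, and were taken as every probe set that the platform annotation names for one of these symbols. This gave 9 genes with 23 probe sets, of 17097 genes and 45141 probe sets on the array. RNA of isolated ventricular cardiomyocytes was hybridised to 16 arrays, 4 per group. The groups were GPER KO and intact mice of each sex, where intact means wild type. The labels give an age of 15 weeks for every mouse, while the methods give an older age. The deletion is described as specific to cardiomyocytes, and the Cre driver and the strain are not given in the sources used here. Other cell types of the ventricle that came through the preparation would still carry Gper1, since the digested tissue was filtered and gently centrifuged but not sorted. Each array carries a number of its own in the labels, taken here as 1 mouse. Females carry numbers 417 to 427 and males 430 to 453. In a comparison between the sexes, sex therefore cannot be told apart from anything else that followed these numbers. If some arrays shared a source, p-values would measure a partly technical spread.

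GPER is a receptor that couples estrogen to G proteins and is found on internal membranes and the cell surface. On stimulation it is known to activate Src and matrix metalloproteinases, which release heparin-binding EGF (encoded by Hbegf) from the cell surface so that it binds EGFR on the same or a neighbouring cell. EGFR and its relatives Erbb2 and Erbb4 then engage PI3K, whose lipid product recruits Akt, and Akt phosphorylates NOS3. Much of this route runs through phosphorylation and shedding, which RNA levels do not report. NOS3 is made mainly by endothelial cells in the heart and at a lower level by cardiomyocytes.

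The deleted gene was checked first. Gper1 has 1 probe set, which lies at the 24.3 percentile of all probe sets by mean signal. It read 2.79 ± 0.13 (SD, n = 4) log2 in female GPER KO cells, 2.87 ± 0.16 in female intact cells, 2.78 ± 0.07 in male GPER KO cells and 2.77 ± 0.12 in male intact cells. The genotypes could not be told apart by this probe set. It read below 3.18 log2, the cutoff of the filter on low values, on every array, intact ones included. At so low a signal a loss of Gper1 RNA may not be visible. The probe set also checks nothing if its target lies outside the deleted part. The 9 measured cardiomyocyte markers averaged between 12.47 and 12.59 log2 on every array, against array medians of 3.47 to 3.51. Markers of other cells were also present. The 13 macrophage markers averaged 5.12 ± 0.16 in female GPER KO and 4.74 ± 0.14 in female intact cells, and 5.65 ± 0.33 and 4.96 ± 0.28 in the male groups. Of these 13, 12 were above intact in females and 13 in males. The test described below called 0 of them in females, against 0.281% of all genes, and 6 in males, against 0.62% of all genes. Values of different probe sets are not on 1 scale, so the levels below are compared between samples and not between genes.

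None of the 9 genes passed the test in any comparison (limma, two-sided, Benjamini-Hochberg over 17097 genes, call at adjusted p under 0.05). In females 0 of 9 were called, against 0.281% of all genes, and the smallest adjusted p among them was 0.419. In males 0 of 9 were called, against 0.62% of all genes, with a smallest adjusted p of 0.406. For the mean of the female and male differences 0 of 9 were called, against 1.36% of all genes, with a smallest adjusted p of 0.312. At an unadjusted p under 0.05 there were 0 of 9 in females, where 12.6% of all genes passed, and 2 of 9 in males, where 10.1% passed (Hbegf and Pik3ca). For both sexes together there were 2 of 9, where 11.7% of all genes passed (Hbegf and Pik3cb). A p that misses the threshold does not show that values did not differ, and the 95% intervals below give the sizes that remain possible. The median log2 difference of the 9 genes was -0.01 in females and -0.04 in males, beside -0.02 and 0.01 over all genes.

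**Figure D1:**
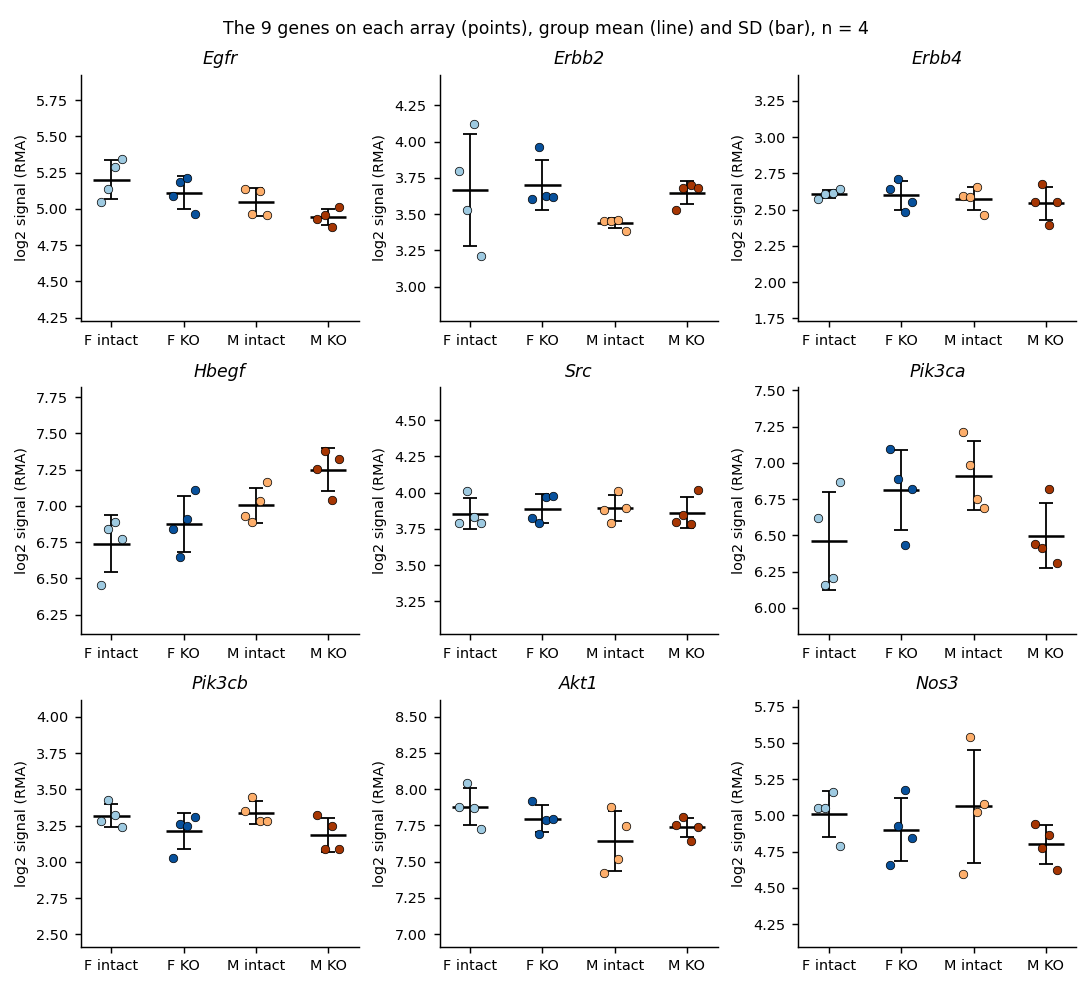
Log2 RMA signal of each of the 9 genes in intact (F intact, M intact) and GPER KO (F KO, M KO) cardiomyocytes of females and males. Points are single arrays, horizontal lines group means and bars 1 SD over 4 arrays; every panel spans the same log2 range, and only for Erbb2 in males do the genotypes not overlap.

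Hbegf encodes the ligand whose release links GPER to EGFR. In males it read 7.26, 7.38, 7.04 and 7.33 log2 on the GPER KO arrays 431, 432, 444 and 451, and 6.93, 6.89, 7.03 and 7.16 on the intact arrays 430, 433, 452 and 453. In females it read 6.84, 6.65, 6.91 and 7.11 on GPER KO arrays 417, 419, 426 and 427, and 6.46, 6.84, 6.89 and 6.77 on intact arrays 418, 421, 422 and 425. On this probe set, the brighter one, the male genotypes overlapped only through GPER KO array 444, which lay below intact array 453. The female genotypes overlapped widely. The log2 difference, GPER KO minus intact, was 0.25 in males (95% interval 0.02 to 0.48, adjusted p = 0.444) and 0.14 in females (-0.09 to 0.37, adjusted p = 0.646). The mean of both was 0.19 ± 0.08 (SE), with an interval of 0.03 to 0.35 and an adjusted p of 0.318. The second Hbegf probe set gave 0.21 in females and 0.19 in males, and tracked the first across the 16 arrays with a correlation of 0.92. Its mean difference over both sexes was 0.20, with an adjusted p of 0.203 over all probe sets. On it the male genotypes just missed overlapping, with 5.708 to 5.962 log2 in GPER KO and 5.677 to 5.706 in intact cells. In males 6.21% of all genes had no overlap on their brightest set. Macrophage markers, which move the same way with genotype, correlated with Hbegf at 0.69 over the 16 arrays but at 0.23 once each group's mean was removed. With group means removed, genes of the early response to cell isolation gave a higher value, 0.33, though -0.02 without that removal. Fibroblast markers gave 0.10, endothelial -0.09, smooth muscle and pericyte -0.16, and cardiomyocyte markers -0.17 with group means removed. The part of any of these in the Hbegf values was not tested.

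Egfr encodes the receptor that GPER signalling transactivates. It averaged 5.11 ± 0.11 log2 (SD, n = 4) in female GPER KO, 5.20 ± 0.14 in female intact, 4.95 ± 0.06 in male GPER KO and 5.05 ± 0.10 in male intact cells. The genotypes overlapped in both sexes. The log2 difference was -0.09 in females (-0.25 to 0.07, adjusted p = 0.663) and -0.10 in males (-0.26 to 0.06, adjusted p = 0.731). The 6 Egfr probe sets did not share a sign: in females their differences were -0.09, 0.14, 0.09, -0.16, -0.04 and 0.08, from the brightest to the dimmest.

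Erbb2 encodes the receptor that has no ligand of its own and pairs with the other family members. In males it read 3.53, 3.68, 3.70 and 3.68 log2 on GPER KO arrays 431, 432, 444 and 451, and 3.45, 3.45, 3.46 and 3.38 on intact arrays 430, 433, 452 and 453. All 4 male GPER KO arrays lay above all 4 male intact arrays. Erbb2 was the 1 gene of 9 without overlap in males, where 6.21% of all genes had none, and 0 of 9 were without overlap in females, where 5.69% had none. The male difference was 0.21 (-0.08 to 0.50, adjusted p = 0.678), in a fit where all groups share 1 estimate of the spread. Female values were wider, from 3.60 to 3.96 in GPER KO and from 3.21 to 4.12 in intact cells, and the female difference was 0.03 (-0.26 to 0.33, adjusted p = 0.946).

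Erbb4, a receptor for neuregulins that cardiomyocytes use, and Src, the kinase that GPER activates upstream of ligand release, showed little difference between genotypes on the probe sets used for the genes. The Erbb4 probe set is dim, at the 14.5 percentile, and read between 2.40 and 2.71 log2 over all 16 arrays. Its differences were -0.01 in females and -0.03 in males, with adjusted p of 0.961 and 0.926. Src read between 3.78 and 4.02 over all 16 arrays. Its differences were 0.03 in females and -0.04 in males, and their mean was -0.0007 ± 0.05 (SE). The second Src probe set had the opposite sign in each sex, -0.07 in females and 0.10 in males. It correlated with the first at 0.21 over the 16 arrays.

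**Figure D2:**
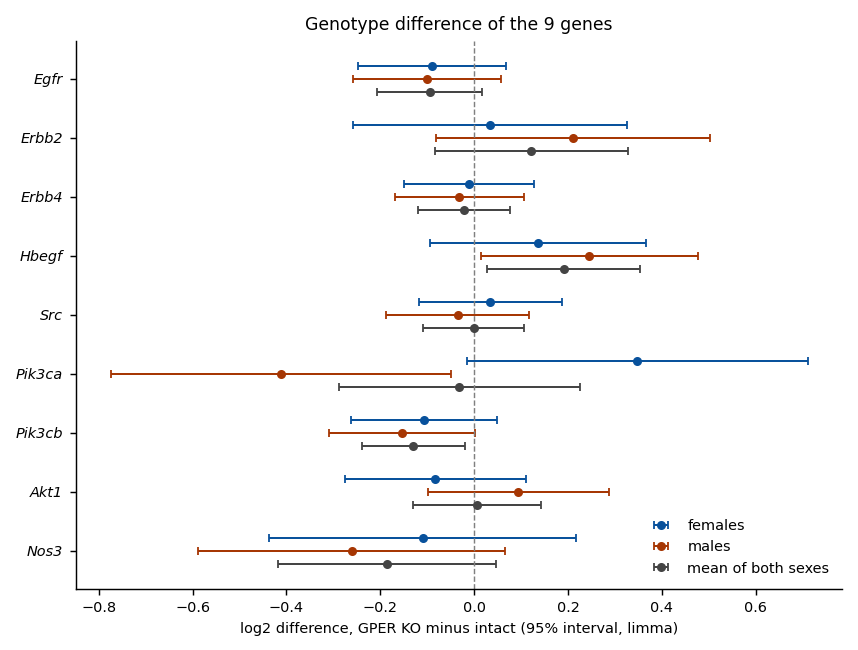
Log2 difference, GPER KO minus intact, of each of the 9 genes in females, males and the mean of both sexes. Points are limma estimates, bars 95% intervals before adjustment and the dashed line no difference; Pik3ca has its female estimate at 0.35 and its male estimate at -0.41, and the intervals of Hbegf and Pik3cb for both sexes exclude 0.

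Pik3ca encodes the p110-alpha catalytic subunit of PI3K, the form that growth factor receptors use most in the heart. Its values lay higher in GPER KO than in intact females and lower in GPER KO than in intact males. In females it read 7.10, 6.89, 6.43 and 6.82 log2 on GPER KO arrays 417, 419, 426 and 427, and 6.62, 6.16, 6.21 and 6.87 on intact arrays 418, 421, 422 and 425. In males it read 6.44, 6.42, 6.82 and 6.31 on GPER KO arrays 431, 432, 444 and 451, and 7.21, 6.98, 6.75 and 6.69 on intact arrays 430, 433, 452 and 453. The genotypes overlapped in each sex, and in females the low end was set by intact arrays 421 and 422. The log2 difference was 0.35 in females (-0.02 to 0.71, adjusted p = 0.419) and -0.41 in males (-0.77 to -0.05, adjusted p = 0.406). The male minus female difference was -0.76 ± 0.24 (SE), with an interval of -1.27 to -0.25 and an adjusted p of 0.426. For this difference between the sexes 0 of 9 genes were called, against 0% of all genes, and 1 of 9, Pik3ca, had an unadjusted p under 0.05, where 11% of all genes did.

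The 5 brighter Pik3ca probe sets gave the same picture, with female differences of 0.21 to 0.53, male differences of -0.42 to -0.17 and correlations of 0.82 to 0.93 between the set used for the gene and the other 4. They measure the same RNA samples and are not independent support. The dim sixth set gave -0.01 and -0.11. Over every probe set of the 9 genes 0 of 23 were called in females, males, both sexes or the difference, against 0.122%, 0.29%, 0.817% and 0% of all probe sets. Female intact arrays 421 and 422 held the lowest Pik3ca values of their group, so leaving them out had to shrink the female difference. Without them the female Pik3ca difference was 0.07, the male one -0.41 and the male minus female one -0.48. In that setting the share of all genes with an unadjusted p under 0.05 for the difference between the sexes was 4.57%, in place of 11%. Without intact array 425, the highest of that group, the female Pik3ca difference was 0.48. Pik3ca deviations from the group means correlated with those of the cardiomyocyte marker mean at 0.55 over the 16 arrays, and their part was not tested.

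**Figure D3:**
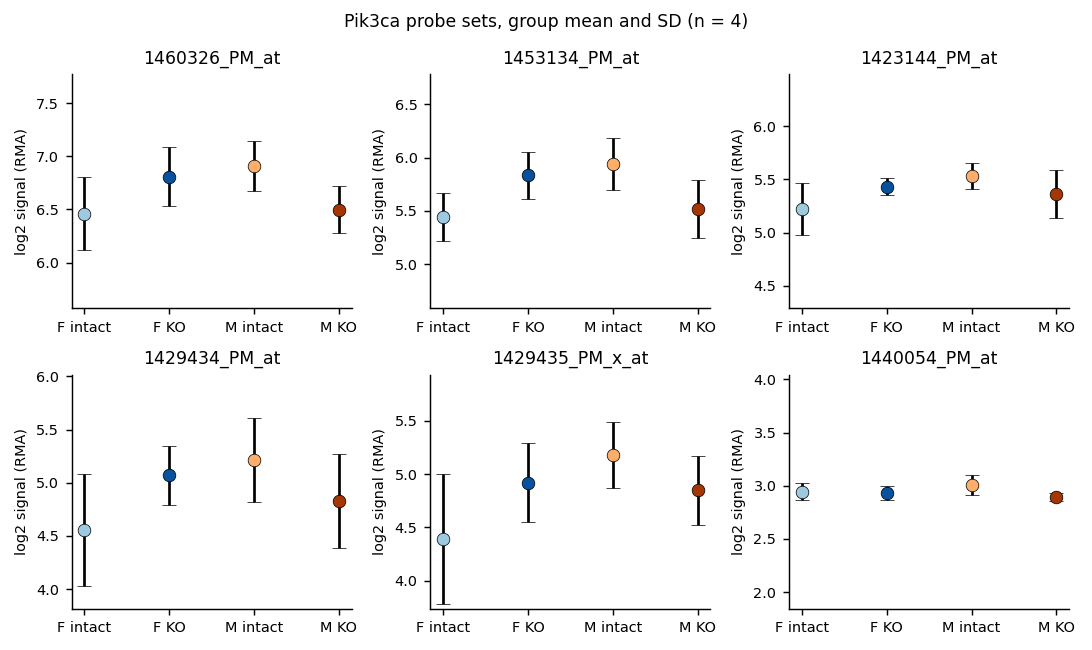
Log2 RMA signal of the 6 Pik3ca probe sets, as group mean and SD over 4 arrays, from the brightest to the dimmest set; each panel has the same log2 range. In the 5 brighter sets female GPER KO lies above female intact and male GPER KO lies below male intact, and the dimmest set is flat.

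Pik3cb encodes p110-beta, the catalytic subunit that also takes input from G protein beta-gamma subunits. Its probe set is dim, at the 43.1 percentile, with arrays on both sides of 3.18 log2, the cutoff of the filter on low values. It averaged 3.21 ± 0.12 log2 (SD, n = 4) in female GPER KO, 3.32 ± 0.08 in female intact, 3.19 ± 0.12 in male GPER KO and 3.34 ± 0.08 in male intact cells. The genotypes overlapped in both sexes. The difference was -0.11 in females (adjusted p = 0.580), -0.15 in males (adjusted p = 0.506) and -0.13 ± 0.05 (SE) for their mean, with an interval of -0.24 to -0.02 and an adjusted p of 0.312. Pik3cb deviations from the group means correlated with those of the endothelial markers at 0.52 and of the macrophage markers at 0.51 over the 16 arrays. The values were 0.50 for fibroblast, 0.34 for smooth muscle and pericyte, and -0.18 for cardiomyocyte markers. The part of these cell types was not tested.

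Akt1 encodes the kinase that PI3K recruits. It averaged 7.80 ± 0.09 in female GPER KO, 7.88 ± 0.13 in female intact, 7.74 ± 0.07 in male GPER KO and 7.64 ± 0.21 in male intact cells. The female difference was -0.08 (adjusted p = 0.760), and the male one was 0.09 (adjusted p = 0.809). The genotypes overlapped in both sexes, and on this brightest of 3 probe sets the male GPER KO values lay within the range of the male intact ones. On the other sets they reached above it. The second set gave -0.07 in females and 0.21 in males, with 6.45 to 6.72 log2 in male GPER KO and 5.91 to 6.61 in male intact cells. The third gave 0.03 in females and 0.10 in males, and its genotypes also overlapped.

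Nos3 encodes the synthase that Akt phosphorylates at the end of the route. In males it read 4.94, 4.77, 4.86 and 4.62 log2 on GPER KO arrays 431, 432, 444 and 451, and 4.60, 5.54, 5.02 and 5.08 on intact arrays 430, 433, 452 and 453. In females it read 4.66, 4.93, 5.17 and 4.84 on GPER KO arrays 417, 419, 426 and 427, and 5.05, 5.05, 5.16 and 4.79 on intact arrays 418, 421, 422 and 425. The genotypes overlapped in both sexes, and the male intact group held both the highest value of all 16 arrays, on 433, and the lowest, on 430. The difference was -0.26 in males (-0.59 to 0.07, adjusted p = 0.632), -0.11 in females (-0.44 to 0.22, adjusted p = 0.820) and -0.19 ± 0.11 (SE) for their mean (-0.42 to 0.05, adjusted p = 0.587). The male difference was -0.42 without intact array 430 and -0.10 without intact array 433.

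Endothelial markers moved beside Nos3. The mean of 17 such markers was 5.47 ± 0.16 log2 in female GPER KO, 5.70 ± 0.23 in female intact, 5.59 ± 0.22 in male GPER KO and 5.86 ± 0.28 in male intact cells. Of the 17, 16 lay below intact in each sex, with a median difference of -0.25 in females and -0.29 in males. The test called 0 of the 17 in either sex, against 0.281% of all genes in females and 0.62% in males. The Nos3 deviations from the group means correlated with those of the endothelial mean at 0.78 over 16 arrays, which share their libraries and normalization. Other cell types gave 0.57 (smooth muscle and pericyte), 0.51 (fibroblast), 0.47 (macrophage) and -0.32 (cardiomyocyte). Array 433 had both the highest Nos3 value and the highest endothelial mean, 6.13, and array 430 had the lowest Nos3 value and an endothelial mean of 5.48, the lowest of the male intact group. In such bulk RNA, fewer cells of a type and less RNA per cell cannot be told apart. The part of RNA from endothelial or other cell types in the Nos3 values was not tested.

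**Figure D4:**
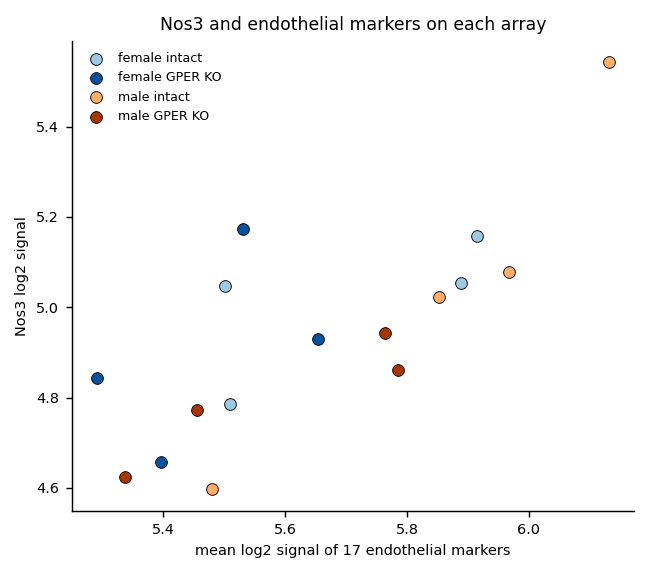
Nos3 log2 signal (vertical axis) against the mean log2 signal of 17 endothelial markers (horizontal axis), 1 point per array, coloured by group. Arrays with higher endothelial means have higher Nos3 values, with a correlation of 0.77 over the 16 arrays.

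Intact males and intact females were also compared. For male minus female intact, 0 of 9 genes were called, against 0.579% of all genes, and 3 of 9 had an unadjusted p under 0.05, where 17.5% of all genes did. These were Pik3ca at 0.45 log2 (adjusted p = 0.196), Hbegf at 0.27 (adjusted p = 0.222) and Akt1 at -0.24 (adjusted p = 0.196). This comparison shares its intact arrays with the genotype comparisons, and sex cannot be told apart in it from anything else that followed the array numbers. Without female intact arrays 421 and 422, the lowest of their group for Pik3ca, the Pik3ca value had to fall and was 0.17. Without female intact array 425, the highest of that group, it was 0.58.

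The wider route was described by 10 lists, on EGF family ligands, other ERBB receptors and inhibitors, shedding proteases, G proteins, Src partners, the ERK cascade, PI3K subunits, Akt and its substrates, nitric oxide synthases and estrogen receptors. Of 114 listed genes 97 were measured here and the other 17 were not analysed. In females 0 of 97 were called, against 0.281% of all genes, with 45 above and 52 below intact. In males 0 of 97 were called, against 0.62% of all genes, with 54 above and 43 below. For both sexes together 1 of 97 was called, near the 1.36% of all genes called there. At an unadjusted p under 0.05 there were 16 of 97 in females (16.5%, against 12.6% of all genes), 11 in males (11.3%, against 10.1%) and 13 for both sexes (13.4%, against 11.7%). These shares lie near those of the whole array and are no result about the route.

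The 1 called gene was Phlpp1, which encodes a phosphatase that removes a phosphate from Akt. It fell by 0.26 on the log2 scale for both sexes together (SE 0.06, adjusted p = 0.0309). Phlpp1 averaged 5.37 ± 0.09 log2 (SD, n = 4) in female GPER KO, 5.70 ± 0.17 in female intact, 5.49 ± 0.09 in male GPER KO and 5.67 ± 0.11 in male intact cells. The female difference alone was -0.34 (adjusted p = 0.118), and the male one was -0.19 (adjusted p = 0.440). The call was lost without female intact arrays 421 and 422 together (adjusted p = 0.143), and without any 1 of arrays 418, 419, 421, 422, 426, 427, 432, 433, 444 or 452.

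The other genes named from the lists, the 2 with the smallest unadjusted p in each, were not called. Among the partners of NOS3, Hsp90aa1, a chaperone that binds NOS3, differed by 0.76 in females with an adjusted p of 0.0850, and Gch1, needed for its cofactor tetrahydrobiopterin, by 0.31 in males with one of 0.246. Among PI3K subunits, the regulatory Pik3r3 differed by 0.50 in females (adjusted p = 0.182) and the catalytic Pik3cg by 0.26 in males (adjusted p = 0.376). Among adaptors that couple receptors to PI3K and the ERK cascade, Gab1 differed by -0.29 in females (adjusted p = 0.135) and Grb2 by 0.22 in males (adjusted p = 0.326). These members sit on both sides of 0.

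Among shedding proteases, Adam17, which releases EGFR ligands, differed by 0.31 in females (adjusted p = 0.220) and Mmp3 by -0.17 in females (adjusted p = 0.185). In the ERK cascade, the kinase Map2k1 differed by 0.20 in males (adjusted p = 0.268) and the inhibitor Spry2 by -0.25 in females (adjusted p = 0.295). Of the ligands and receptors, Ereg differed by 0.11 for both sexes, Btc by 0.13 in females, Erbb3 by -0.17 in males and the ubiquitin ligase Cblb by -0.14 in females. The nuclear receptors gave -0.26 for Esrra in females (adjusted p = 0.144) and 0.14 for Esr1 in males. The G protein subunit Gnas gave 0.12 in females and the cyclase Adcy5 0.25 in males. Mmp3, Gnas and Ereg are dim, at the 31.9, 12.4 and 9.78 percentiles, and read below the low-value cutoff of 3.18 log2 on every array.

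For the difference between the sexes 18 of 97 listed genes (18.6%) had an unadjusted p under 0.05, against 11% of all genes, and 0 were called, against 0% of all genes. Of the 18, 8 lay below 0 and 7 of these, like Pik3ca, were above intact in females and below intact in males: Adam9, Adam10, Adam17, Yes1, Rps6ka3, Pik3c2a and Pik3r1. The other 10 lay above 0, and all of them but Esrra ran the opposite way, below intact in females and above intact in males. These were Mmp3 (only 0.004 in males), Mmp9, Gnb2, Adcy5, Map2k2, Akt2, Mapkap1, Gsk3a and Gch1. Both sets were picked after their values were seen. Pik3r1, which encodes the p85-alpha regulatory subunit that binds p110-alpha, differed by 0.37 in females and -0.44 in males. Without female intact arrays 421 and 422, 4 of the 18 kept an unadjusted p under 0.05, in a setting where 4.57% of all genes had one. They were Adam17, Mmp3, Mapkap1 and Gch1, of which only Adam17 ran like Pik3ca. The female Pik3r1 difference was then 0.006. The 18 were picked by their p with these arrays included, so some loss was built in and tests nothing about the route.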

How the data were processed

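Total RNA of isolated cardiomyocytes was labelled by the 3'-IVT protocol and hybridised to Affymetrix GeneAtlas MG-430 PM arrays, 1 per mouse. The deposited values are log2 signals per probe set, and the submitters' processing notes name RMA and Partek without a version. RMA as usually run makes arrays alike in distribution, so a shift of most genes at once would not be seen. Arrays carry no read depth, and their number limits the precision. Symbols came from the platform annotation: 28898 probe sets had 1 gene, 551 several and 15692 none, and 28689 were matched to RefSeq through Entrez identifiers. The probe set with the highest mean stood for a gene. A linear model with 4 group means over all 16 arrays was fitted in limma 3.58.1 (R 4.3.3), with no covariate, after the script was tested on simulated data. The members, pathway lists and markers were chosen with earlier results of these data known. All 9 genes were named, with, from each list, up to 4 called genes per comparison or, where none was called, the 2 with the smallest unadjusted p over females, males and both sexes, and for each of the 9 the 3 genes most alike. Alternatives were another choice of probe set, a filter on low values, re-scaling, array weights, another variance prior, 1 sex alone, and arrays left out.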

Additional observations from a re-analysis of the deposited data

Results flagged for a closer look

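Of 36 groups of 4 arrays (9 genes in 4 groups), 4 held a value far from the other 3 by the gap to its nearest neighbour, where chance gives about 5% of groups. Erbb2 read 3.96 log2 on female GPER KO array 419, against 3.60 to 3.62 on the others of its group. It read 3.53 on male GPER KO array 431, against 3.68 to 3.70, and 3.38 on male intact array 453, against 3.45 to 3.46. Src read 4.01 on female intact array 421, against 3.79 to 3.83.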

How the results depend on the processing

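None of the 9 genes was called in any comparison under any alternative run. Their smallest adjusted p was 0.160 in females (Pik3ca, without intact 425), 0.193 in males (Erbb2, males alone), 0.175 for both sexes (Hbegf, array weights), 0.162 for the difference between the sexes and 0.0768 for sex among intact mice (Pik3ca, without intact 425 in each). Of 31 differences 21 kept their sign throughout and 10 did not. The 31 were the genotype differences of the 9 genes in females, males and both sexes, with a few others. These others were Pik3ca for the difference between the sexes, and Hbegf, Pik3ca and Akt1 for sex among intact mice. They were included because their unadjusted p was under 0.05, and all of them kept their sign. Leaving out an array of 1 sex could not change a genotype difference of the other sex. With all probe sets of a gene averaged, Egfr in females was 0.0022, Src -0.016 in females, 0.034 in males and 0.009 for both sexes, and Pik3ca for both sexes 0.012. Src for both sexes was 0.032 without female intact 421 and 422, and Akt1 for both sexes -0.00058 with a second quantile normalization. Leaving out 1 array at a time gave -0.12 to 0.19 for Erbb2 in females. For Erbb4 it gave -0.049 to 0.026 in females, -0.076 to 0.018 in males and -0.043 to 0.0035 for both sexes. For Src it gave -0.087 to 0.0037 in males and -0.026 to 0.025 for both sexes, for Pik3ca -0.086 to 0.035 and for Akt1 -0.031 to 0.045, both for both sexes. The causes were not tested. The Phlpp1 call held in 12 of 23 alternatives, with adjusted p of 0.00427 to 0.143. Counts of called genes over the whole array moved with single arrays, from 20 to 159 in females, 53 to 120 in males, 162 to 296 for both sexes and 13 to 375 for sex among intact mice. Erbb4 gave no value under the filter on low values. No paired analysis was possible because every array number is unique. With 4 arrays per group the precision is limited, and the printed intervals are not limits of detection. Pik3ca and Hbegf in males had intervals that exclude 0 and were still not called.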

Other observations

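For each of the 9 genes, the 3 genes whose deviations from the group means ran most alike over the 16 arrays were taken from the 8549 genes at or above the median level, as a description that shares libraries and normalization. Picking the highest values among so many genes over 16 arrays builds in high correlations, so their size tests nothing. Nos3 was most like Hspa12b (0.90), Cyb5r3 (0.86) and Fabp5 (0.86), and Pik3ca most like Lcor (0.97), Trpm7 (0.95) and Gas5 (0.95). Hbegf ran with Klhl40 (0.87), Rhno1 and Atp6v1b2, Egfr with B3galt4 (0.91), Ptpa and Gm5142, and Erbb2 with Champ1 (0.88), Nxph3 and Cpt1a. Erbb4 ran with Trmt6 (0.82), Arhgap20 and Fbxo38, Src with Fdps (0.89), Antxr2 and Plpp7, Pik3cb with Hey1 (0.86), Timm23 and Srsf9, and Akt1 with Pcnx (0.84), Snx17 and Cdc42bpg. Among the 9 genes themselves the 36 pairwise values ran from -0.65 (Src and Pik3ca) to 0.59 (Hbegf and Src), with 0.55 for Akt1 and Nos3 and 0.54 for Pik3cb and Nos3.

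The remaining marker lists, none of them part of the route, gave these values. Fibroblast markers averaged 5.46 log2 in female GPER KO and 5.27 in female intact cells, and 5.56 and 5.43 in the male groups. They did not move together: of the 10, 7 lay above intact in females and 5 in males. For both sexes the limma test called 1 of 10, against 1.36% of all genes. This was Fbln1 at -0.76 (adjusted p = 0.0190), while Col3a1 lay at 0.95 (adjusted p = 0.0923). Col1a2 and Pdgfra are dim, at the 7.94 and 31.7 percentiles. Smooth muscle and pericyte markers averaged 5.64 and 5.74 in the female groups and 5.63 and 5.77 in the male ones. Early response genes, which cell isolation can induce, averaged 7.93 and 8.14 in the female groups and 7.91 and 7.97 in the male ones.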
